A study of Homo sapiens with 6 samples.

Results

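The regions described here are TEAD binding sites that also carried a peak of a tagged, mutant YAP protein in the human cell line CCLP1. They were chosen as TEAD peaks on chromosomes 1 to 22 that overlapped a YAP5SA peak by at least 1 bp and lay more than 2 Mb from any stretch of over 2.5 Mb without a peak in any list. Of 9321 TEAD peaks, 8462 lay on these chromosomes and away from such stretches, and 487 of those met a YAP5SA peak. The other 7975 serve as the comparison. The members were split by the list of YAP peaks into 68 with a YAP peak and 419 without.

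CCLP1 is an established line derived from an intrahepatic cholangiocarcinoma, a cancer of the bile ducts. Binding was mapped by ChIP-seq, the sequencing of DNA recovered with a protein, after fixation for 10 min in 1% formaldehyde. There was 1 library per group: a TEAD antibody (the series' design text names TEAD1), a YAP antibody and Flag-Bio-YAP5SA, called YAP5SA here. IgG, input DNA and BirA libraries were also made, and BirA is described as the control of the tagged protein. No background from these 3 is given, since they were not used here. The expression level of the tagged protein, the number of clones behind the tagged line and the growth conditions are unknown here, and peak lists cannot show whether the cells carry bile duct markers.

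YAP is the co-activator at the end of the Hippo pathway. When the kinases LATS1 and LATS2 are active, they phosphorylate YAP on serines and keep it out of the nucleus; YAP5SA has those serines replaced by alanine and escapes this control. YAP does not bind DNA itself and reaches it mainly through TEAD proteins, often at enhancers far from genes. BirA is a biotin ligase that attaches biotin to a short tag, which allows a tagged protein to be pulled down without an antibody to YAP.

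Each peak has a score given by the authors, with a lowest value of 50 and a ceiling of 3100. From this range and the MACS peak names it was taken to be the negative log10 of a p-value times 10. Scores rank peaks within a list and are not compared in size between lists. With a single library behind each list there is no replicate error, and read depth is unknown. Intervals are exact Clopper-Pearson 95% intervals. They cover counting error only and treat peaks as independent, which neighbouring peaks are not. No test between conditions was possible. Genes, promoters and motifs are not given, because no hg19 sequence or annotation was used here.

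The members were mostly strong TEAD peaks. Their TEAD scores ran from 50.04 to 3100 with a median of 374.5 (interquartile range 171.6 to 764.9), while the other TEAD peaks had a median of 74.1 (59.6 to 122.7). Their widths ran from 88 to 2906 bp with a median of 408 bp, against 204 bp for the others. Overlap with YAP5SA chose the members, and a wide peak meets more bases, so these differences describe the choice and are not a finding about it. The share of TEAD peaks that met YAP5SA, 5.76% of all 8462, was 1.30% for scores under 100 (71 of 5454), 4.37% from 100 to 200, 13.9% from 200 to 400, 31.3% from 400 to 800, 53.6% from 800 to 1600 (82 of 153) and 76.3% from 1600 upwards (29 of 38).

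Within the YAP5SA list the peaks at members were also mostly the higher-scoring ones, though many scored near the lowest value. Scores of the YAP5SA peak of largest overlap had their median at 81.7 (interquartile range 60.8 to 126.9), and 115 of the 487 scored under 60, close to the lowest score listed. The 8286 YAP5SA peaks away from members had a median of 56.5 (52.2 to 63.6). Of the 100 highest-scoring YAP5SA peaks on these chromosomes and away from such stretches, 73 lay at members. Peaks at members were 498 of 8784 in all. Overlap chose these peaks too, so this describes the choice. Across members the TEAD and YAP5SA scores had a Spearman rho of 0.33 (n = 487). Over the same 487 pairs the score also moved with peak width, with a rho of 0.84 for the TEAD peaks and 0.71 for their YAP5SA peaks. The points share 2 libraries, and the rho describes them only.

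**Figure D1:**
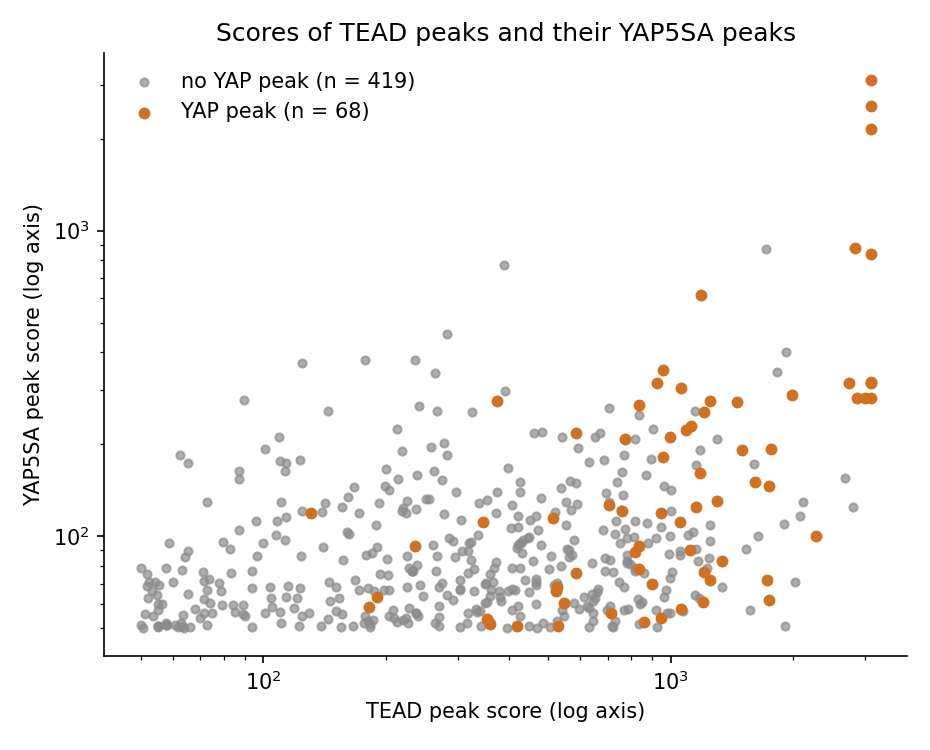
TEAD peak score (horizontal, log axis) and score of the YAP5SA peak of largest overlap (vertical, log axis) for the 487 members, 1 point each; orange points have a YAP peak (n = 68) and grey points have none (n = 419). Most points lie under a YAP5SA score of 400, and 3 points at the TEAD ceiling of 3100 stand far above the rest.

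The 3 members with the highest YAP5SA scores stood apart from the rest in that list and also reached the TEAD ceiling, which 7 members did. The TEAD peak on chromosome 5 from 1326297 to 1329202 had the ceiling TEAD score of 3100, a YAP5SA score of 3100 and a YAP score of 856, the highest YAP score among members. It was also the widest member: the TEAD peak spanned 2906 bp, the YAP5SA peak 2821 bp and the YAP peak 2727 bp, and their centres lay within 29.5 bp of the TEAD centre. The peak on chromosome 14 from 62221873 to 62222485 had scores of 3100 (TEAD), 2562 (YAP5SA) and 528 (YAP). The peak on chromosome 12 from 13678052 to 13679844 had scores of 3100, 2152 and 424 in the same order and held 2 YAP5SA peaks. These are the 3 members with a YAP5SA score above 1000; the next, on chromosome 4 from 1317537 to 1318846, had 876. The chromosome 5, chromosome 14 and chromosome 4 regions had no other TEAD peak within 50 kb, and the chromosome 12 region had 1.

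Below these, TEAD score did not fix the score in the other lists. Of the 20 members with the highest TEAD scores, 13 had a YAP peak and 7 had none. Chromosome 6 from 132272336 to 132272890 had a TEAD score of 3100, a YAP5SA score of 319 and a YAP score of 186. That on chromosome 3 from 76546309 to 76547339 had scores of 3100, 838 and 293. The peak on chromosome 5 from 93553826 to 93554714 also reached 3100 for TEAD and 284 for YAP5SA, but its YAP peak scored 51.8, near the lowest score listed. On chromosome 4 from 1317537 to 1318846, a YAP5SA score of 876 stood beside a YAP score of 60.25. On chromosome 2 from 224413735 to 224414442, a TEAD score of 1905 stood beside a YAP5SA score of 50.9 and no YAP peak.

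The reverse order also occurred. Of the 10 members with the highest YAP5SA scores, 6 had a YAP peak. The other 4 were on chromosome 9 from 114803939 to 114804584 (YAP5SA score 870, TEAD score 1713), chromosome 3 from 146031269 to 146031834 (774 and 390), chromosome 3 from 139477689 to 139478099 (458.5 and 282) and chromosome 21 from 17935995 to 17936897 (402 and 1917). The chromosome 9 region and the first chromosome 3 region lay 159418 and 163152 bp from the nearest YAP peak. The chromosome 3 region from 139477689 lay 832096 bp from it, and the chromosome 21 region 5354 bp. Among members with a YAP peak, a YAP score of 431, behind only the chromosome 5 and chromosome 14 regions above, belonged to a region on chromosome 20 from 8996202 to 8996662 whose TEAD score was 1060 and YAP5SA score 306. The weakest TEAD peak with a YAP score above 100 was on chromosome 6 from 8085321 to 8085666, with a TEAD score of 182, a YAP5SA score of 58.6 and a YAP score of 117.

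The peaks of a region lay nearly on top of each other. The YAP5SA centre lay a median of 47 bp from the TEAD centre (interquartile range 20 to 89.25; longest 554.5 bp), which is less than the sonicated fragment size of about 250 bp. It lay within 50 bp in 257 members (52.8%), within 100 bp in 381 (78.2%) and within 250 bp in 475 (97.5%). The offset had no side: 234 YAP5SA centres lay towards higher coordinates and 253 towards lower ones, with a median signed distance of -3 bp. The shared stretch had a median of 231 bp and covered a median of 60.9% of the TEAD peak. In 280 members (57.5%, 53.0 to 61.9) the YAP5SA peak lay wholly within the TEAD peak, and in 38 the TEAD peak lay wholly within the YAP5SA peak. Overlap was required of members, so part of this closeness is set by the choice.

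Nearly every pairing was a single pair of peaks. Of the 487 members, 471 met 1 YAP5SA peak and 16 met 2, and 498 YAP5SA peaks were involved in all. In 5 cases 1 YAP5SA peak spanned 2 neighbouring members. On chromosome 2, the TEAD peaks from 214052553 to 214052869 (score 374.5) and from 214052912 to 214053333 (score 1246) shared the YAP5SA peak from 214052751 to 214053288, which scored 278. Such neighbours are not independent members.

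The centres of the YAP peaks also lay close to the TEAD centres. These 68 regions were picked by overlap of the YAP peak with the TEAD peak, which sets much of this closeness and of the shared bases below. The median distance was 78.5 bp (interquartile range 38.75 to 157.6, n = 68), with 35 YAP centres towards higher and 33 towards lower coordinates. Between YAP and YAP5SA centres it was 75 bp. In 64 of the 68 regions the 3 peaks had bases in common, with a median of 287.5 bp. In the same 68 regions the YAP5SA centre lay a median of 64 bp from the TEAD centre. The YAP peaks were wider, with a median of 425.5 bp, than the YAP5SA peaks of the same regions (357.5 bp). The part of peak width in these distances was not tested.

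**Figure D2:**
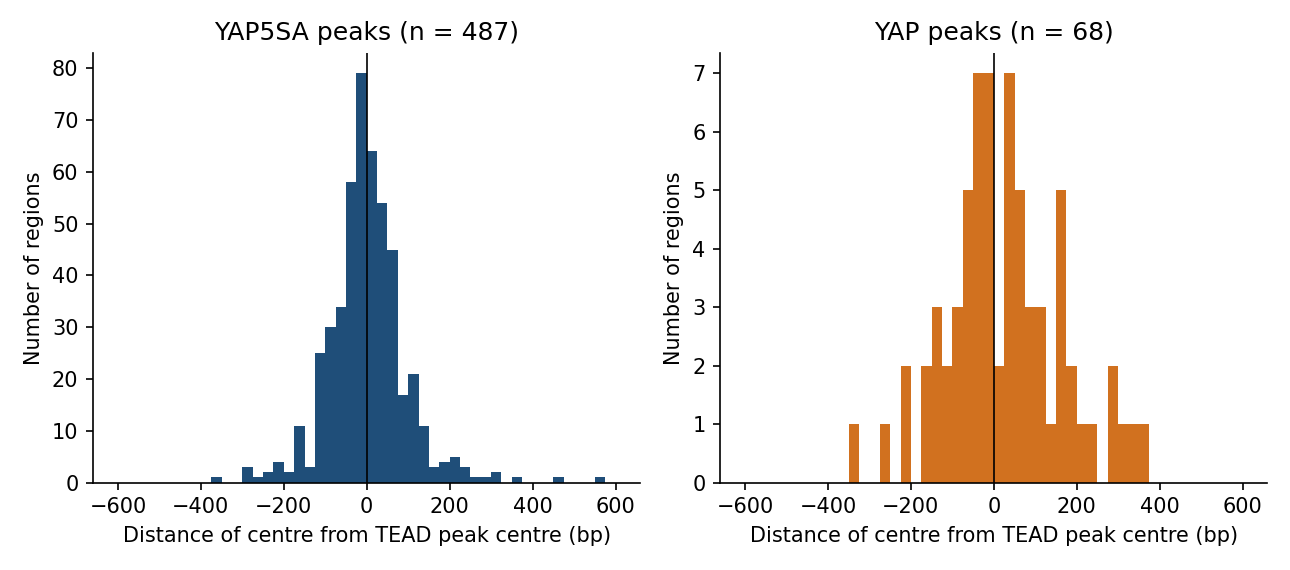
Distance in bp from the TEAD peak centre to the centre of the YAP5SA peak (left, 487 regions) and of the YAP peak (right, 68 regions), in bins of 25 bp; the vertical axis counts regions and the line marks 0. Both sets of centres lie on either side of the TEAD centre, within 554.5 bp for YAP5SA and 361.5 bp for YAP.

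The next comparison asked whether sites of tagged YAP5SA are also sites of YAP, the protein detected by the YAP antibody. A YAP peak was present at 68 of 487 members (14.0%, 11.0 to 17.4), at 105 of the 7975 other TEAD peaks (1.32%, 1.08 to 1.59) and at 2.04% of all 8462. The 68 lay on 20 of the 22 chromosomes. The YAP antibody detects tagged YAP as well wherever it is present, and whether the library called YAP came from cells without the tagged protein is unknown here. Whether the 3 lists were called against the same control library is unknown too, and its part in the overlap was not tested.

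Members with a YAP peak were the stronger ones in both other lists. Their TEAD scores ran from 130.65 to 3100 with a median of 1061 (interquartile range 713 to 1639), against a median of 318 (144.5 to 635.8) for the 419 without. The ranges overlapped widely, since members without a YAP peak reached 2799. Their YAP5SA scores had a median of 125.65 against 78.2, and their TEAD widths a median of 614 bp against 378 bp. The YAP scores had a median of 72.7 (57.2 to 99.1), with 20 of 68 under 60 and 5 of 200 or more. The 3083 YAP peaks of the same chromosomes and zones away from members had a median of 57.7 (53.6 to 63.4). At other TEAD peaks the YAP score had a median of 64.3 (n = 105). Among the 68, Spearman's rho was 0.54 between TEAD and YAP scores, 0.43 between YAP5SA and YAP scores, and 0.61 between TEAD and YAP5SA scores, as a description of these regions.

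When TEAD peaks of like score were set side by side, the gap between members and other TEAD peaks was smaller. For TEAD scores of 400 to 800, 9.76% of 123 members met a YAP peak (5.14 to 16.4) and 7.04% of 270 others did (4.29 to 10.8). For scores of 800 to 1600 the shares were 36.6% of 82 members (26.2 to 47.95) and 21.1% of 71 others (12.3 to 32.4). From 1600 upwards they were 62.1% of 29 (42.3 to 79.3) and 77.8% of 9 (40.0 to 97.2). For 200 to 400 they were 4.50% and 2.76%, and for 100 to 200 they were 4.23% and 0.965%. Under 100, 0 of 71 members met a YAP peak, which allows a share of up to 5.06%, against 0.557% of the others. The intervals of members and others overlapped in every one of the 6 classes. The share was higher for members in 4 classes and lower in the lowest and the highest. If the other TEAD peaks had the members' mix of the 6 classes, 10.8% of them would meet a YAP peak, against 14.0% of members. The top class rests on 9 other peaks; without it the values were 6.58% and 10.9%.

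**Figure D3:**
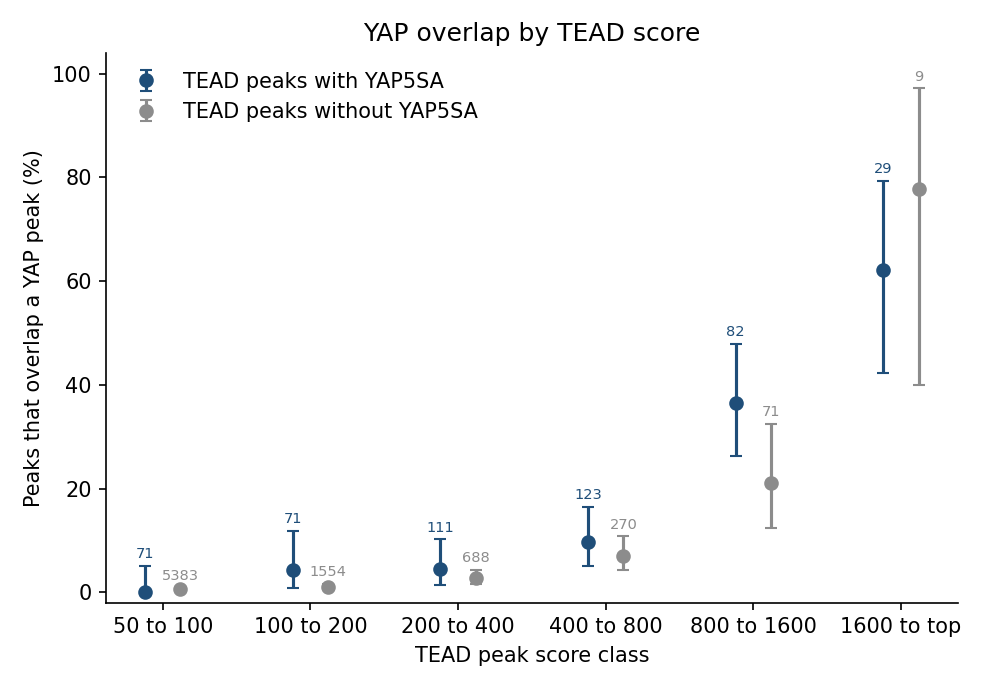
Percent of TEAD peaks that overlap a YAP peak (vertical) by TEAD score class (horizontal), for the 487 members (blue) and the 7975 other TEAD peaks (grey); points are shares, bars are exact 95% intervals and small figures are the number of peaks. Both series climb with TEAD score, and their intervals overlap in each class.

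Peak width gave a wider gap than score. Among TEAD peaks 400 to 600 bp wide, 16.7% of 156 members (11.2 to 23.5) and 7.11% of 506 others (5.03 to 9.71) met a YAP peak. Among those of 600 bp or more the shares were 37.9% of 95 (28.1 to 48.4) and 20.8% of 144 (14.5 to 28.4). Members of these widths also had higher TEAD scores than the others, with medians of 580 against 318 and of 998 against 559. With the members' mix of widths, 6.73% of the other TEAD peaks would meet a YAP peak.

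Within the members, the share with a YAP peak was highest where both scores were high, though 31 of the 68 lay there and the rest lay elsewhere. Of the 50 members with a TEAD score of 800 or more and a YAP5SA score of 120 or more, 31 met a YAP peak (62%, 47.2 to 75.3). At the same TEAD scores, 7 of 28 members with a YAP5SA score of 80 to 120 did (25%, 10.7 to 44.9), and 10 of 33 with a lower one (30.3%, 15.6 to 48.7). The median TEAD score also differed between these sets, at 1298, 1079 and 994. At TEAD scores of 400 to 800 a YAP5SA score of 120 or more went with 4 of 31 (12.9%, 3.63 to 29.8), one of 80 to 120 with 1 of 38 (2.63%, 0.0666 to 13.8) and one under 80 with 7 of 54 (13.0%, 5.37 to 24.9). Under a TEAD score of 400 the shares in the same order were 1 of 55 (1.82%, 0.0460 to 9.72), 3 of 45 (6.67%, 1.40 to 18.3) and 4 of 153 (2.61%, 0.717 to 6.56). Below a TEAD score of 800 the share thus did not climb with the YAP5SA score.

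The 419 members without a YAP peak were mostly far from any YAP peak. The nearest YAP peak lay a median of 239938 bp away, much as for the other TEAD peaks without YAP (243950 bp). It lay within 1000 bp for 3 of them and within 10000 bp for 25 (5.97%, 3.90 to 8.68; 4.66%, 4.21 to 5.15, for the other TEAD peaks). The strongest such member, on chromosome 17 from 46323795 to 46324795, had a TEAD score of 2799 and 2 YAP5SA peaks, and its nearest YAP peak was 1576 bp off, at the neighbouring member from 46321339 to 46322234 (TEAD score 2272, YAP5SA score 101, YAP score 74.9). The next, on chromosome 5 from 110865869 to 110866791, had a TEAD score of 2680 and a YAP5SA score of 156, with 109233 bp to the nearest YAP peak. The YAP list is the shortest of the 3, with 3867 peaks, and depth is unknown, so a missing YAP peak is not evidence that YAP was absent.

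TEAD binds enhancers, which can be densely packed, and the last comparison asked how crowded the surroundings of the members were. A cluster was 3 or more TEAD peaks with no gap over 12500 bp between neighbours. Of the members 153 lay in a cluster (31.4%, 27.3 to 35.7). Among the other TEAD peaks 2075 did (26.0%, 25.1 to 27.0), and among all 8462 the share was 26.3%. The nearest other TEAD peak lay a median of 10479 bp from a member and 24805 bp from another TEAD peak. Of the members 148 had no other TEAD peak within 50 kb, which does not set them apart. The number of other TEAD peaks within 50 kb had a median of 2 for members and 1 for the other TEAD peaks. Its lower quartile was 0 in both groups. The share in clusters was 35.3% for members with a YAP peak (24.1 to 47.8) and 30.8% for those without (26.4 to 35.5), intervals that overlap.

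Set against TEAD peaks of like score, the order was the reverse. In each of the 6 score classes the share of members in clusters was lower than that of the other TEAD peaks. For scores of 100 to 200 it was 19.7% (11.2 to 30.9) against 36.6% (34.2 to 39.0), for 200 to 400 it was 25.2% (17.5 to 34.4) against 44.8% (41.0 to 48.6), and for 800 to 1600 it was 41.5% (30.7 to 52.9) against 66.2% (54.0 to 77.0). In these 3 classes the intervals did not overlap. In the other 3 they did: 15.5% and 18.9% under 100, 43.9% and 47.4% for 400 to 800, and 41.4% and 66.7% from 1600 upwards. With the members' mix of score classes, 45.4% of the other TEAD peaks would lie in clusters, and with their mix of widths 42.1%, against 31.4% of members. Neighbours in a cluster share their surroundings, so the intervals are too narrow.

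**Figure D4:**
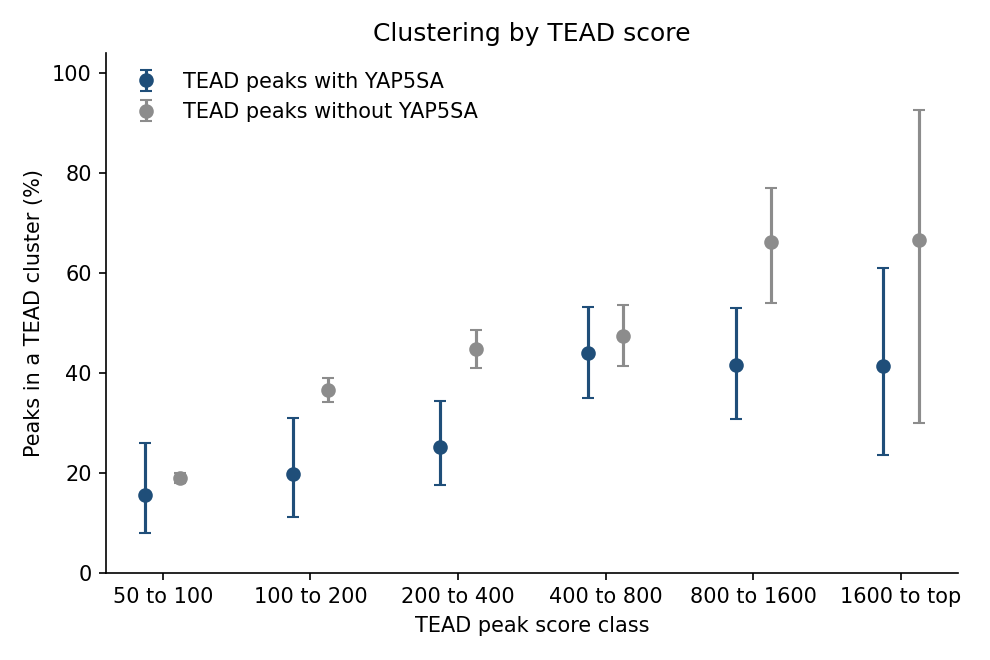
Percent of TEAD peaks that lie in a TEAD cluster (vertical) by TEAD score class (horizontal), for the 487 members (blue) and the 7975 other TEAD peaks (grey); points are shares and bars are exact 95% intervals. The blue point lies under the grey one in each of the 6 classes, with intervals apart for 100 to 200, 200 to 400 and 800 to 1600.

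The 153 members in clusters were a small part of the 2228 TEAD peaks in clusters. Of 510 TEAD clusters 115 held a member: 92 held 1, 16 held 2 and 7 held 3 or more. Whether this spread differs from that of other TEAD peaks was not tested. The cluster on chromosome 19 from 50594088 to 50642881 had the most, with 6 members among 21 TEAD peaks in 48.8 kb. Their TEAD scores ran from 630 to 842 and their YAP5SA scores from 50.5 to 218, and 1 of the 6, from 50624197 to 50625583, had a YAP peak (score 62). A second cluster on chromosome 19, from 48406749 to 48461239, held 5 members among 17 TEAD peaks, with TEAD scores from 458 to 1169 and YAP5SA scores in a narrow range from 76.3 to 83.4.

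The members of the chromosome 19 clusters were broad. All 11 were 905 to 1668 bp wide, with a median of 1328 bp, and 10 of them were among the 19 members over 1 kb. The other TEAD peaks of these clusters included broad and narrow ones. In the cluster from 48406749 they lay, for example, 31.553 to 33.056 kb and 23.176 to 23.718 kb from its first base. In that from 50594088 they lay, for example, at 40.78 to 42.178 kb and 0 to 0.451 kb. Breadth was thus not particular to members. Centres of successive members in the cluster from 50594088 lay 8334.5, 5403.5, 5469.5, 5359.5 and 10405 bp apart. In the cluster from 48406749 they lay 15705.5, 5130, 5418.5 and 5400 bp apart. The spacings of 8334.5, 10405 and 15705.5 bp ran over broad TEAD peaks that were not members. In the cluster from 48406749, broad TEAD peaks that were not members started 0, 5.53, 10.594 and 15.934 kb from its first base. Steps near those of 5130 to 5469.5 bp were thus not particular to members. In the chromosome 12 and chromosome 21 clusters described next, the spacings of members ran from 252.5 to 12763 bp. The spacings were noticed in the data, and no test of them was made. The DNA sequence of these clusters was not examined, so whether they hold repeated units was not tested either.

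The other clusters with 3 or more members had no member over 1 kb wide. On chromosome 12 from 13267172 to 13288866, 5 of 9 TEAD peaks were members, with TEAD scores from 179 to 372 and YAP5SA scores from 52.1 to 120. None had a YAP peak, and the nearest lay at least 392993 bp away. On chromosome 21 from 17923497 to 17946289, 4 of 7 TEAD peaks were members, with TEAD scores of 659, 1917, 1062 and 1337 in order of position and YAP5SA scores of 65.9, 402, 58.1 and 68.5. The third, from 17941898 to 17942843, had a YAP peak (score 66.3). The 3 other TEAD peaks of that cluster scored 63.2 to 117. Clusters with 3 members spanned 150010645 to 150063119 on chromosome 3, 115899201 to 115914362 on chromosome 7 and 69666074 to 69676983 on chromosome 8, and no member of these had a YAP peak.

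**Figure D5:**
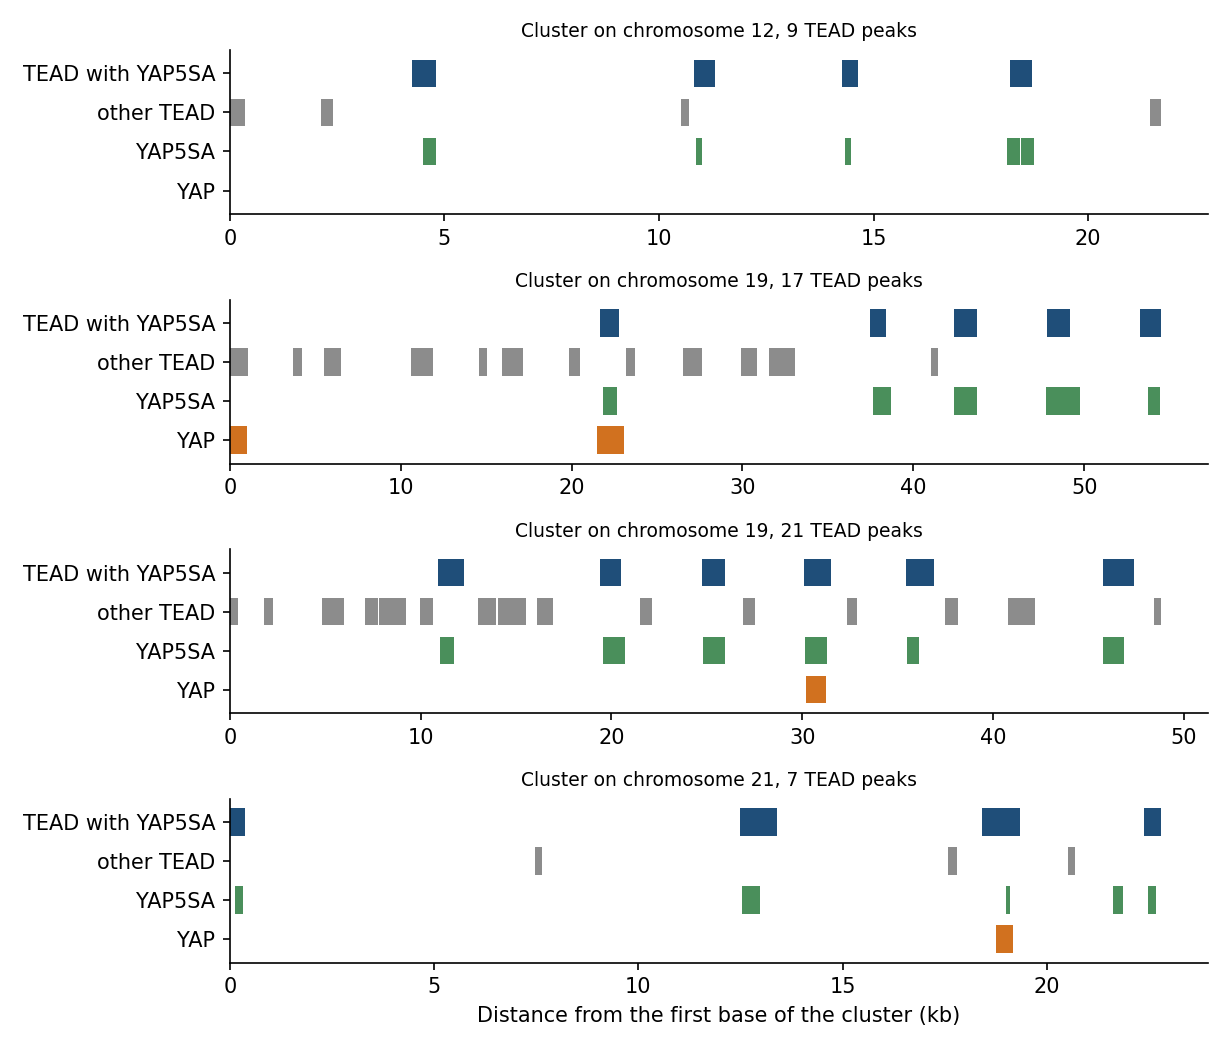
Peaks in the 4 TEAD clusters that hold 4 or more members, drawn to scale by distance in kb from the first base of each cluster (each panel has its own scale); rows show TEAD peaks with YAP5SA (blue), other TEAD peaks (grey), YAP5SA peaks (green) and YAP peaks (orange). The last blue block on chromosome 12 is 2 adjoining members. The chromosome 19 panels hold broad grey blocks as well as broad blue ones. In each of these panels, 3 steps between blue blocks lie between 5130 and 5469.5 bp. In the panel with 17 TEAD peaks, broad grey blocks start at 0, 5.53, 10.594 and 15.934 kb, so such steps are not particular to blue blocks.

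Some members gathered over longer distances. With members joined across gaps of up to 50 kb, 15 groups of 3 or more held 55 members, 8 of which had a YAP peak. That is close to the 14.0% over all 487 members (68 of them). A looser set of members, chosen after its values were seen and not one of the 15 groups, lay on chromosome 1 from 98464828 to 98789851. Its 5 members stood among 31 TEAD peaks in 325 kb, with gaps of up to 235938 bp between them, and 4 of the 5 met a YAP peak. The 2 strongest of these, from 98464828 to 98465737 and from 98552197 to 98552796, had TEAD scores of 3100 and 1982, YAP5SA scores of 317 and 291 and YAP scores of 107 and 124. The members from 98788735 and 98789337 shared the same YAP5SA and YAP peaks.

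All 22 chromosomes held members, from 3.03% of the TEAD peaks of chromosome 16 (5 of 165, 0.991 to 6.93) to 8.33% of those of chromosome 21 (9 of 108, 3.88 to 15.2). The interval missed the share over all chromosomes, 5.76%, in 1 of the 22: chromosome 10, with 16 of 487 TEAD peaks (3.29%, 1.89 to 5.28). On chromosome 1, 15 of 61 members had a YAP peak (24.6%, 14.5 to 37.3), against 53 of 426 on the other chromosomes (12.4%, 9.46 to 16.0). These intervals overlap, and the median TEAD score was 359 on chromosome 1 and 377 elsewhere.

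The limits of the choice can be read from the peaks next to it. The smallest overlaps were 1 bp on chromosome 17 from 57855270 to 57855424 (TEAD score 50.15), 13 bp on chromosome 12 from 12601378 to 12601636 (84.3) and 14 bp on chromosome 1 from 98788735 to 98789314 (131); 3 members overlapped by under 20 bp. Just outside lay TEAD peaks 27 bp from a YAP5SA peak on chromosome 18 from 3247347 to 3247679 (615) and 43 bp from one on chromosome 6 from 139860824 to 139861203 (143). In all, 37 other TEAD peaks lay within 250 bp of a YAP5SA peak without touching it. Nearness to a peak-free stretch removed 21 shared TEAD peaks, 8 of them with a YAP peak. They included a TEAD peak on chromosome 18 from 13674777 to 13675958 with the ceiling score of 3100 and a YAP peak, at 1498003 bp from such a stretch; the nearest peak kept, on chromosome 6 from 56673619 to 56674282, lay 2105892 bp from one.

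Some strong TEAD peaks without YAP5SA had a YAP peak and others had none, in an order that changed with the score. Among the 25 highest-scoring TEAD peaks, 6 had a YAP peak and no YAP5SA peak, and 1 had neither. In the top 50 these numbers were 9 and 6. Among the 100 highest-scoring TEAD peaks, 66 were members, 35 of them with a YAP peak; 13 more had a YAP peak and no YAP5SA peak, and 21 had neither. Among the 500 highest, 212 were members, 59 of them with a YAP peak, while 37 had a YAP peak only and 251 had neither. The strongest without YAP5SA spanned 59608388 to 59609306 on chromosome 1 (TEAD score 2978, 7576 bp from a YAP5SA peak), 20009457 to 20010165 on chromosome 7 (2706, 55727 bp) and 36602788 to 36603561 on chromosome 15 (2340, 158242 bp), and each had a YAP peak. The strongest with neither was on chromosome 12 from 69001385 to 69002091, with a TEAD score of 1946.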

How the data were processed

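The submitters' processing notes name Bowtie2 and hg19. The deposited peak lists give a position and a score per peak, and the score is the authors' value. The peak caller's version, its threshold, its control library and any pooling were not given in the sources used here. Starts were read as counted from 0 and are printed counted from 1; 1 start below 0 was set to 0. Stretches without peaks were measured between peaks of all 3 lists and from a chromosome's first base, which gave 23 on chromosomes 1 to 22. The partner of a member was the peak of largest overlap. The members and the comparisons were chosen with earlier results of these data known. Regions named were the strongest members by each score, those at the limits of the choice and the clusters with most members; score and width classes were set after the data were seen. Overlap counts equalled those of bedtools 2.31.1 in 4 of 4 comparisons, and the code was tested on simulated data. Shares in a class mix weight the other TEAD peaks' class shares by the members' numbers. Alternatives were the overlap rule, list length, peak width, distances and chromosomes. Software comprised pandas 2.3.3 and scipy 1.17.1 for computing, matplotlib 3.10.9 for drawing, numpy 2.4.6, and Python 3.11.15. Gene start and motif results need an hg19 annotation and sequence and were not run.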

Additional observations from a re-analysis of the deposited data

How the results depend on the processing

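Across 31 alternatives for 6 results, 25 stayed within 1.5 times the main count or within the interval of the main value. For differences, the interval was that of the members' share, shifted. No difference changed direction, while counts, shares and the median distance could not do so by their nature. Of the 31, 13 were chosen after seeing the data, including all those of the differences. A reciprocal overlap of 50% left 300 of the 487 members. The same rule was applied to YAP peaks, and 10.7% of the 300 had a YAP peak that met it. This share thus differs from the main one in both the members and the YAP overlap. The share of members in clusters was 19.5% with a distance of 5 kb and 40.7% with 25 kb (other TEAD peaks 15.5% and 34.0%). At the members' score classes, members lay in clusters less often than other TEAD peaks by 14.0 percentage points (difference -13.96). The difference was -7.61 with 5 kb, -14.9 with 25 kb and -17.2 without the 7 clusters of 3 or more members. Leaving out those clusters removes only members that lie in clusters. The members' share then falls by construction, here to 27.1%, so the -17.2 is no check of the difference. For YAP peaks the difference was 3.15 percentage points with score classes, 7.23 with width classes and 2.13 without chromosome 1. It was 5.17 with the reciprocal overlap, applied to both YAP5SA and YAP peaks. Gene start and motif alternatives were not run. No paired analysis was possible because there is 1 library for each antibody, so replicates could not be left out either. Unknown read depth limits what a missing peak can show.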
